A study of Mus musculus with 10 samples.

Results

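The genes described are 4 interferon receptor chains and 44 genes that interferons induce or that act in the response, 48 in all, in IL-22+ T cells that carried either 1 or 2 intact copies of Riok2. They were taken by gene symbol from a list of pathway genes. The list uses no measured value, but it was chosen with earlier results of these data known. Of the 48, 47 had a row among the 23393 genes analysed. Both groups came from C57BL/6 mice aged 10 weeks, with 5 libraries each. Riok2hKO mice had the genotype Riok2f/+ Vav1cre/+ Il22tdtomato/+, and WT mice Riok2+/+ Vav1cre/+ Il22tdtomato/+, so the Cre transgene and the reporter allele were common to both. Vav1-driven Cre acts across blood lineages, not in Th22 cells alone. Naive CD4+ T cells from spleen were stimulated with antibodies to CD3e and CD28. They were cultured with IL-6 at 30 ng/mL, with IL-23 and IL-1b (each at 20 ng/mL) and with 400 nM of FICZ, which activates the aryl hydrocarbon receptor, while antibodies to IFN-g and IL-4 blocked those cytokines. Each library was made from 5000 sorted CD4+ cells in which the tdTomato reporter marked Il22 expression. Values are TPM (a share of transcripts), which scale reads by transcript length and by library, so the sequencing depth is unknown.

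Type I interferons bind a receptor of the chains IFNAR1 and IFNAR2, and interferon gamma, the type II interferon, binds IFNGR1 and IFNGR2. Janus kinases on these chains phosphorylate STAT proteins. STAT proteins then bind the interferon-stimulated response element (ISRE), together with IRF9, or the gamma-activated site (GAS), and switch on genes that block viruses and intracellular microbes. T cells keep part of this programme active at a low level without added interferon, and the blocking antibody in these cultures was directed at interferon gamma, not at type I interferons.

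Riok2, which encodes an atypical kinase of small ribosomal subunit maturation, had 14.5, 12.0, 13.4, 12.2 and 16.2 TPM in Riok2hKO replicates 1 to 5, against 29.9, 29.1, 26.1, 27.25 and 29.1 TPM in WT replicates 1 to 5. Its mean in Riok2hKO cells was 48.3% of that in WT cells, and the groups did not overlap (two-sided exact permutation p = 0.00794, the smallest that 252 assignments allow). Exons of Riok2 share 265 bases with Gm26873 on the opposite strand, where reads cannot be told apart. Between 13948 and 14695 genes were above 0 per library. WT replicate 1 stood apart, with 122 genes at least 1 log2 unit below the rest of its group, against 6 to 20 in each of the other libraries. Summed CD4 T cell markers were 2263 to 2317 TPM in Riok2hKO libraries and 2386 to 2399 TPM in WT libraries. Of the 8 markers, Cd3d, Cd3g and Lck fell and Cd28 rose at a limma adjusted p under 0.05, and the other 4 did not pass. Log2 fold changes of Riok2hKO over WT were above 0 for 4 of them and below 0 for 4. The macrophage, NK cell, B cell and red cell lists each summed to at most 3.09 TPM in any library. Of the CD8 markers, Cd8b1 fell, and the list summed to 11.5 to 14.8 TPM in Riok2hKO libraries and 17.5 to 19.6 TPM in WT libraries. Nearly all of that sum was Cd8b1. Cd8a was at most 0.27 TPM in Riok2hKO libraries and 0.48 TPM in WT libraries, and its groups overlapped. The part of these differences in the results was not tested. In bulk RNA, fewer cells that express a gene and less RNA of it per cell cannot be told apart.

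Of the 48 genes, 33 reached 1 TPM in at least 5 of the 10 libraries and were tested. Relative to WT, 5 of the 33 (15.2%) fell in Riok2hKO cells, namely Irf8, Ifnar1, Trim30a, Ifnar2 and Bst2, and 0 rose, at an adjusted p under 0.05 from limma on log2(TPM + 1). Among all 10332 genes tested, 7.55% fell and 9.58% rose. The 5 genes fell by modest amounts, with log2 fold changes of Riok2hKO over WT between -0.46 and -0.16. The median log2 fold change was -0.07 over the 33 genes, of which 22 lay below 0 and 11 above, and -0.01 over all genes tested. The groups did not overlap, with Riok2hKO lower, for 4 of the 33, against 5.87% of all genes, and with Riok2hKO higher for 0 of the 33, against 8.72% of all genes. Leaving out 1 library gave 2 to 5 genes that fell, with 3 without Riok2hKO replicate 1, 2 without Riok2hKO replicate 3 and 3 without Riok2hKO replicate 4. In those fits, in that order, 6.09%, 5.39% and 5.12% of all genes tested fell. Some of the counts with 1 library left out hold genes outside the 5, namely Usp18, Isg15, Ifit2 or Irf1. The TPM of all 47 genes summed to 859 to 934 in Riok2hKO libraries and to 921 to 981 in WT libraries. Separate mice or cultures are not named in the labels, so the p-values reflect how far these libraries spread, which may be technical.

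**Figure D1:**
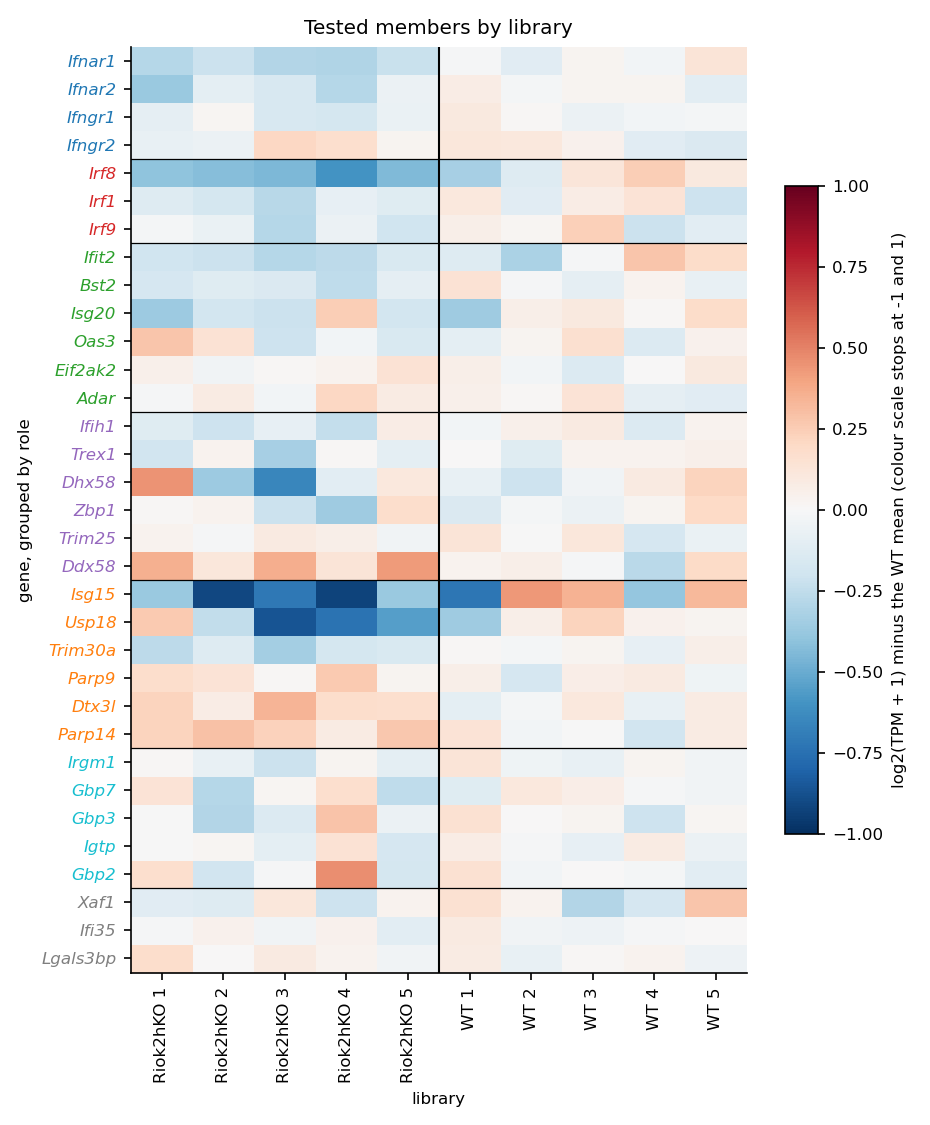
Each row is a tested gene, grouped by role, and each column a library, with Riok2hKO left of WT. The colour is log2(TPM + 1) minus the WT mean. The 5 genes that fell lie below 0 in all 5 Riok2hKO libraries, as do some that did not pass, such as Isg15 and Irf1.

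Both chains of the type I receptor fell, while neither chain of the type II receptor passed the test. Ifnar1, the chain that carries the kinase TYK2, had 17.7, 18.7, 17.6, 17.5 and 18.5 TPM in Riok2hKO replicates 1 to 5, against 21.65, 20.1, 22.2, 21.3 and 23.9 TPM in WT replicates 1 to 5. Every Riok2hKO library was below every WT library. The means were 17.99 ± 0.550 TPM in Riok2hKO and 21.8 ± 1.38 TPM in WT (SD, n = 5 each), a level 82.5% of WT, and the log2 fold change was -0.26 (SE 0.0501, limma adjusted p = 0.00440). The call held in all 22 alternative analyses, with an adjusted p of 0.00249 to 0.0154. Ifnar1 lies on chromosome 16 at 91485032 to 91510523 in the mm10 build. The outermost start for Ifnar1 in the RefSeq promoter table (GRCm38.p6, the assembly of mm10) is at 91485215. The 250 bases before that start, plus strand, at chr16:91484965-91485214, are shown as a window without either interferon motif, and 183 of them lie inside the gene as annotated above.
Ifnar1: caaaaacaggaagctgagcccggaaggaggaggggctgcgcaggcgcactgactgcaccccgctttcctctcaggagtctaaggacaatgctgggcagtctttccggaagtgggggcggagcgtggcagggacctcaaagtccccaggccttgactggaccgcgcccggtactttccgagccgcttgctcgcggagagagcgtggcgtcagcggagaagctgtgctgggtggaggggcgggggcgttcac

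Ifnar2, which binds ligand with the highest affinity and carries JAK1, had 24.7, 29.95, 28.6, 26.1 and 30.7 TPM in Riok2hKO replicates 1 to 5, against 33.9, 31.6, 32.8, 32.7 and 29.7 TPM in WT replicates 1 to 5. The groups overlapped, since WT replicate 5 lay below Riok2hKO replicates 2 and 5. The log2 fold change was -0.20 (SE 0.0623), and the limma adjusted p of 0.0499 sat at the threshold. The call was lost in 13 of 22 alternatives, including 7 of the 10 in which 1 library was left out, where the adjusted p reached 0.116. Ifnar2 lies at 91372783 to 91405589 on chromosome 16, and its exons share 158 bases with the gene model Gm21970 on the same strand, so its level is uncertain to that extent. Il10rb, which lies between Ifnar2 and Ifnar1, had a log2 fold change of -0.01 (limma adjusted p = 0.958). Its exons share 167 bases with Gm21970 on the same strand, so the same limit applies to its level.

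Ifngr1, the ligand-binding chain for interferon gamma, had 25.2, 27.3, 24.0, 23.6 and 25.6 TPM in Riok2hKO replicates 1 to 5, against 28.8, 27.1, 25.8, 26.4 and 26.45 TPM in WT replicates 1 to 5. The groups overlapped, and the log2 fold change of -0.09 had a 95% interval of -0.20 to 0.01 (limma adjusted p = 0.213). Ifngr2, the signalling chain, had 19.6, 19.8, 24.0, 23.3 and 21.1 TPM in Riok2hKO replicates 1 to 5, against 22.5, 22.3, 21.4, 19.0 and 18.6 TPM in WT replicates 1 to 5. These groups overlapped, with a log2 fold change of 0.05 and a 95% interval of -0.11 to 0.21 (limma adjusted p = 0.671). Ifngr1 lies on chromosome 10 at 19591949 to 19610229, and Ifngr2 on chromosome 16 at 91547059 to 91564007, beyond Ifnar1. Whether the type I chains differed from the type II chains in their response was not tested. The 4 chains were expressed at similar levels, with means over all libraries of 19.9 to 30.1 TPM.

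**Figure D2:**
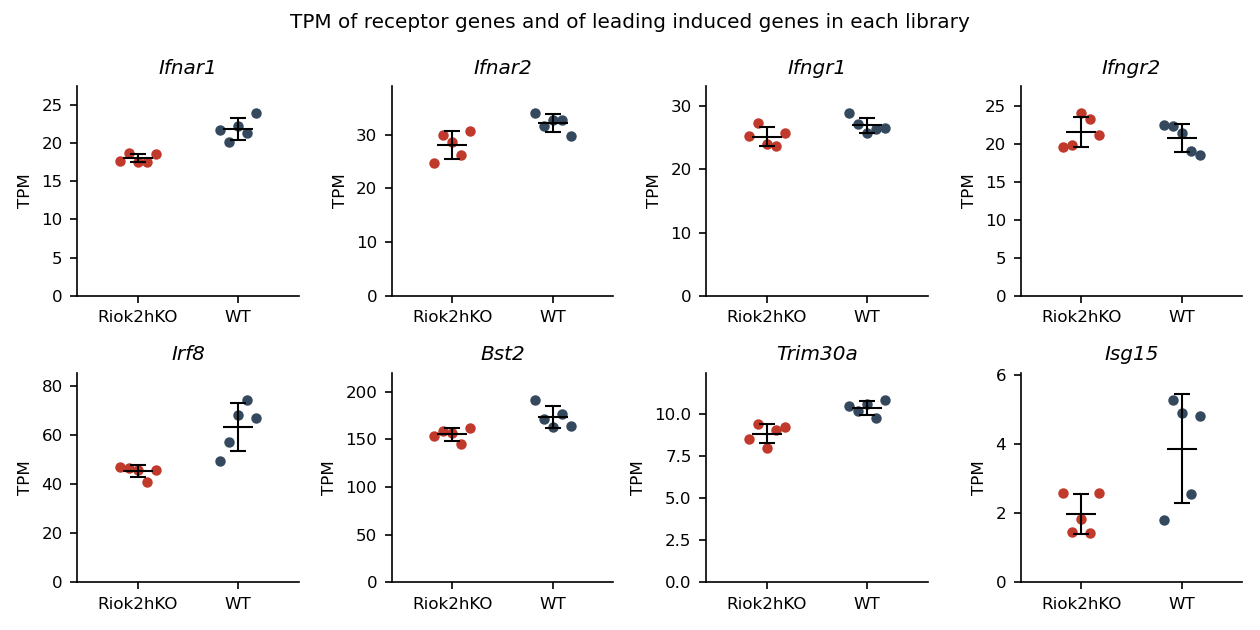
Each panel plots TPM in each library (points) with the group mean and SD (bars) for the 4 receptor chains, Irf8, Bst2, Trim30a and Isg15, with Riok2hKO left of WT. Points of Ifnar1, Irf8, Bst2 and Trim30a do not overlap between groups, while Isg15 spreads from 1.81 to 5.28 TPM in WT.

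Among interferon regulatory factors, Irf8 had the largest drop of the 5 genes that fell. Irf8, a transcription factor induced by interferon gamma and best known in myeloid and B cells, had 47.0, 46.4, 45.6, 41.0 and 45.85 TPM in Riok2hKO replicates 1 to 5, against 49.55, 57.1, 68.1, 74.2 and 67.0 TPM in WT replicates 1 to 5. The groups did not overlap, and WT spread further than Riok2hKO, with the lowest WT value in replicate 1. The means were 45.2 ± 2.39 TPM in Riok2hKO and 63.2 ± 9.80 TPM in WT (SD, n = 5 each), a level 71.5% of WT, and limma gave a log2 fold change of -0.46 (SE 0.0919, adjusted p = 0.00554). All 22 alternatives kept the call, and without WT replicate 1 the fold change was -0.55 (limma adjusted p = 1.9e-04). The dendritic cell list summed to 48.3 to 66.6 TPM in Riok2hKO libraries and 43.7 to 60.5 TPM in WT libraries, through H2-Ab1 and Cd74, which reached the threshold for testing while the other 6 of 8 did not. H2-Ab1 had a log2 fold change of 0.31 (limma adjusted p = 0.0893) and Cd74 of -0.37 (limma adjusted p = 0.0731), so neither passed. The dendritic cell genes Flt3, Itgax, Clec9a and Siglech were at most 0.11 TPM in any library. Zbtb46 had 0.51 to 1.01 TPM in Riok2hKO libraries and 0.70 to 1.31 TPM in WT libraries. Xcr1 had 0.32 to 0.54 TPM in Riok2hKO libraries and 0.23 to 0.40 TPM in WT libraries. Irf8 lies at 120736358 to 120756694 on chromosome 8, and its window at chr8:120736108-120736357 (plus strand) is shown because it holds a pair of GAS matches, in capitals, at 171 to 163 and 153 to 145 bases before the start.
Irf8: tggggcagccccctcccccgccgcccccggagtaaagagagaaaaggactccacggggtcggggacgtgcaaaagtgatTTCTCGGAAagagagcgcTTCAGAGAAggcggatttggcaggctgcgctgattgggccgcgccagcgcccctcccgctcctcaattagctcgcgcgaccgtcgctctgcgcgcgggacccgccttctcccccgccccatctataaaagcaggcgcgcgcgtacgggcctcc

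Irf1, an early activator, averaged 25.7 ± 1.33 TPM in Riok2hKO and 28.8 ± 3.01 TPM in WT (SD, n = 5 each), with a log2 fold change of -0.16 (limma adjusted p = 0.140). Irf9, a DNA-binding partner of STAT proteins, had a log2 fold change of -0.13 (limma adjusted p = 0.330), and its exons share 123 bases with Rnf31 on the same strand. Irf7, the amplifier of type I interferon production, stayed below the threshold for testing, at 0.14 to 0.87 TPM in Riok2hKO libraries and 0.36 to 0.83 TPM in WT libraries.

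Of 16 antiviral effectors, 6 were tested, Bst2 fell and the other 5 did not pass. Bst2 encodes tetherin, which holds budding virions at the cell surface, and it was the most abundant of the 47 genes with a row. It had 153.6, 159.2, 156.5, 144.9 and 162.1 TPM in Riok2hKO replicates 1 to 5, against 191.3, 171.8, 162.45, 177.0 and 163.9 TPM in WT replicates 1 to 5. The groups did not overlap, but the highest Riok2hKO library and the lowest WT library, at 162.09 and 162.45 TPM, nearly touched. The log2 fold change was -0.16 (SE 0.0464, limma adjusted p = 0.0374), and the call was lost in 9 of 22 alternatives, 6 of them by leaving out 1 library, with an adjusted p of up to 0.0918. Ifit2, which binds viral RNA, ranged from 3.95 to 4.45 TPM in Riok2hKO and from 3.85 to 6.31 TPM in WT (log2 fold change -0.22, limma adjusted p = 0.164). Isg20, an exonuclease, Oas3, a sensor of double-stranded RNA that makes 2-5A, Eif2ak2, the kinase PKR, and Adar, an RNA editing enzyme, had log2 fold changes of -0.14 to 0.07 and limma adjusted p of 0.480 to 0.975. Bst2 lies at 71534255 to 71537472 on chromosome 8, and its window at chr8:71537473-71537722 (minus strand) is shown because it holds an overlapping pair of ISRE matches and a GAS match that runs into them, all in capitals.
Bst2: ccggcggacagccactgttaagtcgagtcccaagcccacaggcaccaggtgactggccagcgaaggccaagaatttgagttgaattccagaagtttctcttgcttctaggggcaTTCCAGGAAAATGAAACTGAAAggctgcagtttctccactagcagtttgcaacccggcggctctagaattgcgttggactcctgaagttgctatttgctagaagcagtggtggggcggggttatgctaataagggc

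Of 6 genes of the ubiquitin-like, ADP-ribose and ubiquitin system, Trim30a fell, Isg15 and Usp18 had log2 fold changes of -0.66 and -0.43 without passing, and Parp9, Dtx3l and Parp14 lay above 0 without passing. Trim30a, a mouse ubiquitin ligase of the TRIM family that restrains innate signalling, had 8.51, 9.42, 8.02, 9.08 and 9.25 TPM in Riok2hKO replicates 1 to 5, against 10.5, 10.2, 10.6, 9.78 and 10.9 TPM in WT replicates 1 to 5. The groups did not overlap, and the log2 fold change was -0.21 (SE 0.0569, limma adjusted p = 0.0253). The call was lost in 4 of 21 alternatives, 3 of them by leaving out 1 library (adjusted p of up to 0.0635 over all). Trim30a has near relatives beside it in the mouse genome, among which reads can be split. Trim30a lies at 104409025 to 104465193 on chromosome 7, and its window at chr7:104465194-104465443 (minus strand) is shown for 1 ISRE match, read on the other strand and in capitals.
Trim30a: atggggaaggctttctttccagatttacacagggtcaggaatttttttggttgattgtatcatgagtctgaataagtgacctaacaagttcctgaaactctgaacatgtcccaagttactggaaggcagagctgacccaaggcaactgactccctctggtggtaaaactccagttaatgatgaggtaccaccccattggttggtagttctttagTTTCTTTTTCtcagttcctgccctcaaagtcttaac

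Isg15, the ubiquitin-like protein attached to many targets in infected cells, had 2.58, 1.47, 1.83, 1.44 and 2.58 TPM in Riok2hKO replicates 1 to 5, against 1.81, 5.28, 4.91, 2.55 and 4.81 TPM in WT replicates 1 to 5. WT replicates 2, 3 and 5 lay above all other libraries, and WT replicates 1 and 4 lay within the Riok2hKO range. The log2 fold change was -0.66 with a 95% interval of -1.14 to -0.18, and the limma adjusted p was 0.0609. The gene passed in 4 of 21 alternatives. Without WT replicate 1, which stood apart in general, the fold change was -0.84 (limma adjusted p = 0.00642), and over the 21 the adjusted p ran from 0.00642 to 0.136. Isg15 lies at 156199424 to 156200818 on chromosome 4, and its window at chr4:156200819-156201068 (minus strand) is shown for its run of 3 overlapping ISRE matches, in capitals.
Isg15: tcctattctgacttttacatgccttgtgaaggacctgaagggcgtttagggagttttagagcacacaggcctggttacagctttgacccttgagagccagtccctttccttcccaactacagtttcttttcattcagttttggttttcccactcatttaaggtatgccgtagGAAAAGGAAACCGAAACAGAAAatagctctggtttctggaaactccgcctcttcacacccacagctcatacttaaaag

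Usp18, which removes ISG15 and dampens type I receptor signalling, had 2.13, 1.2, 0.43, 0.56 and 0.78 TPM in Riok2hKO replicates 1 to 5, against 1.04, 1.72, 2.04, 1.68 and 1.66 TPM in WT replicates 1 to 5. The groups overlapped through Riok2hKO replicates 1 and 2, and the other 3 Riok2hKO libraries lay below 1 TPM and below every WT library (log2 fold change -0.43, limma adjusted p = 0.155). Usp18 passed without Riok2hKO replicate 1 (log2 fold change -0.60, limma adjusted p = 0.0222) and in no other alternative. It reached 1 TPM in 2 Riok2hKO and 5 WT libraries, so WT alone met the threshold for testing. Dtx3l, a ubiquitin ligase that pairs with PARP9, ranged from 11.1 to 13.5 TPM in Riok2hKO and from 9.70 to 11.3 TPM in WT (log2 fold change 0.20, limma adjusted p = 0.0518), and it passed in 5 of 22 alternatives. Parp14, an ADP-ribose transferase, had a log2 fold change of 0.22 (limma adjusted p = 0.0851) and Parp9 of 0.12 (limma adjusted p = 0.212). Parp9 and Dtx3l share 367 exon bases on opposite strands, and the method keeps no strand, so their reads there cannot be told apart.

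None of the 6 nucleic acid sensors and their regulators passed. Ddx58, which encodes the RNA sensor RIG-I, had 3.27, 2.62, 3.30, 2.66 and 3.50 TPM in Riok2hKO replicates 1 to 5, against 2.42, 2.48, 2.31, 1.78 and 2.81 TPM in WT replicates 1 to 5. Riok2hKO replicates 1, 3 and 5 lay above all WT libraries and the others overlapped with them (log2 fold change 0.28, limma adjusted p = 0.0760). Trex1, the DNA exonuclease that limits cytosolic DNA, had 76.0, 89.5, 69.2, 88.1 and 81.5 TPM in Riok2hKO replicates 1 to 5, against 87.3, 80.1, 89.2, 89.3 and 90.2 TPM in WT replicates 1 to 5. The groups overlapped (log2 fold change -0.11, limma adjusted p = 0.264), and Trex1 exons share 996 bases with Atrip on the same strand. Ifih1, the RNA sensor MDA5, Dhx58, the related LGP2, Zbp1, a sensor of Z-form nucleic acid, and Trim25, a ligase of the RIG-I pathway, had log2 fold changes of -0.11 to 0.03. Their limma adjusted p lay between 0.265 and 0.807.

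The guanylate-binding proteins and immunity-related GTPases, families that act in defence against microbes held in vacuoles, had log2 fold changes of -0.07 to 0.05 among the 5 tested, and none passed. Gbp2 had 131.75, 102.6, 116.3, 161.55 and 103.5 TPM in Riok2hKO replicates 1 to 5, against 130.4, 114.7, 117.3, 115.4 and 108.6 TPM in WT replicates 1 to 5. The WT values lay inside the Riok2hKO range, whose top was replicate 4, and the 95% interval of the log2 fold change was -0.18 to 0.28 (limma adjusted p = 0.786). Igtp had 90.7, 92.2, 84.5, 100.6 and 80.6 TPM in Riok2hKO replicates 1 to 5, against 95.5, 90.1, 85.7, 96.1 and 86.9 TPM in WT replicates 1 to 5. Its groups overlapped fully (log2 fold change -0.02, 95% interval -0.14 to 0.10, limma adjusted p = 0.848), and its exons share 162 bases with Irgm2 on the same strand. Gbp3 ranged from 5.20 to 8.23 TPM in Riok2hKO and from 5.57 to 7.40 TPM in WT, Gbp7 from 1.96 to 3.04 TPM in Riok2hKO and from 2.31 to 2.87 TPM in WT, and Irgm1 from 16.7 to 19.9 TPM in Riok2hKO and from 18.5 to 21.4 TPM in WT. Ifi35, Lgals3bp and Xaf1, the other induced genes tested, also did not pass, with log2 fold changes of -0.06 to 0.05.

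**Figure D3:**
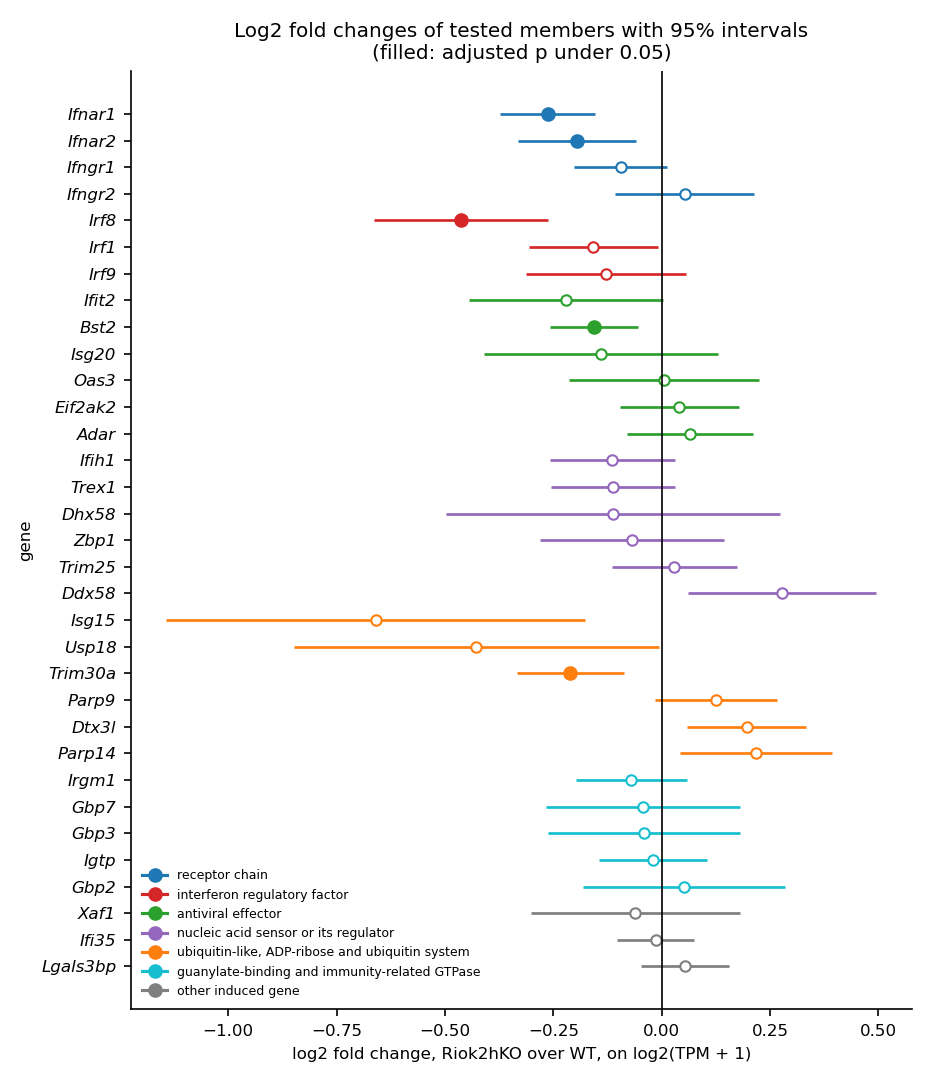
Points give the log2 fold change of Riok2hKO over WT on log2(TPM + 1) for each tested gene, grouped by role, with 95% intervals as lines and filled points for an adjusted p under 0.05. The 5 filled points all lie below 0, and the GTPases lie within -0.07 to 0.05.

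The other 14 genes, most of them classical antiviral genes, were nearly silent in both groups, at no more than 0.88 TPM in any Riok2hKO library and 1.90 TPM in any WT library. Their TPM summed to 2.48 to 3.40 in Riok2hKO libraries and to 4.30 to 7.11 in WT libraries, so the sums did not overlap. The largest gaps in mean were of Ifit1, at 0.20 TPM in Riok2hKO against 1.06 in WT, and Iigp1, at 0.35 against 0.94. The sums therefore do not weigh all 14 alike, and no such sum was taken for other low genes. Of the 14, 12 had a lower mean in Riok2hKO and 2 a higher one, against 50.4% lower among the 7977 genes above 0 that missed the threshold. The groups did not overlap for 2 of the 14, both lower in Riok2hKO, against 0.514% of such genes lower and 0.602% higher. The 7977 genes were not matched to the 14 on level, and a gene at 0 in libraries of both groups cannot separate them. These shares are therefore a loose measure for the 14. These values rest on few reads, and the depth behind them is unknown.

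Ifit1, an RNA-binding antiviral protein, had 0.22, 0, 0.33, 0.11 and 0.34 TPM in Riok2hKO replicates 1 to 5, against 0.76, 1.90, 1.14, 0.46 and 1.03 TPM in WT replicates 1 to 5. Iigp1, a GTPase of the same family as Igtp, had 0.33, 0.37, 0.21, 0.43 and 0.43 TPM in Riok2hKO replicates 1 to 5, against 1.63, 0.83, 0.81, 0.57 and 0.87 TPM in WT replicates 1 to 5. For both genes every Riok2hKO library was below every WT library. In a limma fit with no threshold on level, over 18309 genes, of which 3.23% fell and 4.05% rose, 6 of the 47 genes fell and 0 rose. The 6 were Ifnar1, Irf8, Trim30a, Ifit1 (log2 fold change -0.75, adjusted p = 0.0209), Iigp1 (-0.50, adjusted p = 0.0306) and Oasl1 (-0.40, adjusted p = 0.0462). Oasl1, an OAS-like protein, had 0 to 0.17 TPM in Riok2hKO and 0.15 to 0.69 TPM in WT, and these overlapped. Oas1a, which makes the signal molecule 2-5A, had 0.21 to 0.88 TPM in Riok2hKO and 0.66 to 1.02 TPM in WT, where replicate 1 was the high Riok2hKO library. The remaining 10 were Ifit3, Oas2, Oasl2, Mx1, Mx2, Rsad2, Irf7, Ifi44, Rtp4 and Cmpk2, and C57BL/6 mice are known to carry a defective Mx1. Ifit1, Iigp1, Oasl1 and Oas1a were chosen after their values were seen. Ifi27 was not analysed under that symbol, and the row Ifi27l1, its RefSeq synonym, had a log2 fold change of -0.07 (limma adjusted p = 0.724).

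**Figure D4:**
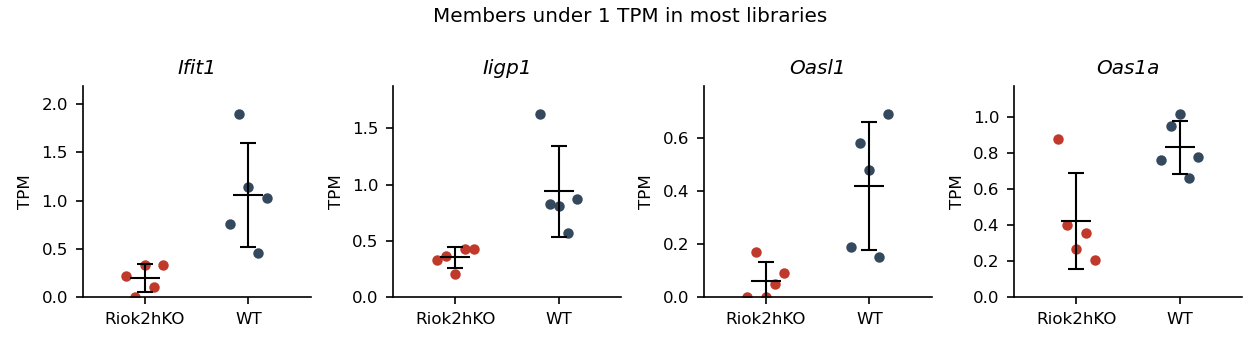
Panels plot TPM in each library (points) with the group mean and SD (bars) for Ifit1, Iigp1, Oasl1 and Oas1a, with Riok2hKO left of WT. Ifit1 and Iigp1 do not overlap between groups, and no panel exceeds 1.90 TPM.

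The interferon motifs were found in promoters of genes that fell and of genes that did not. Windows of 250 bases before the outermost start in the RefSeq promoter table were found for 37 of the 47 genes. That start was the outer end of the annotated gene for 24 of the 37 and lay inside the gene for the other 13, Ifnar1 among them. The ISRE core GAAANNGAAA, searched on both strands, was in 13 of 37 windows (35.1%), against 3.05% of the 27025 genes with a window. Among tested genes it was in 9 of 28 of these windows (32.1%), against 2.63% of 7753. GAS, TTCNNNGAA, reads the same on both strands as a pattern, and was in 10 of 37 (27.0%), against 7.14% of all genes with a window, and among tested genes in 9 of 28 (32.1%), against 6.11%. Of the 5 genes that fell, Bst2 and Trim30a held the ISRE core, Bst2, Irf8 and Ifnar2 held GAS, and the Ifnar1 window held neither. All 5 tested GTPase windows held the ISRE core, and none of these 5 genes passed the test. A match is a match of letters, not a bound site, and these 2 motifs can overlap, as in Bst2. The window of Ifit1 at chr19:34640639-34640888 (plus strand) is shown for its pair of ISRE matches, both read on the other strand and in capitals.
Ifit1: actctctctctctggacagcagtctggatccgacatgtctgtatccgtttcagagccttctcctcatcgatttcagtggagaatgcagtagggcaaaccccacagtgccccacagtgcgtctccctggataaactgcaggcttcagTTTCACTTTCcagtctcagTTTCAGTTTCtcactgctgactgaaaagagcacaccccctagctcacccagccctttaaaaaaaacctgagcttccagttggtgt

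Of 19 interferon genes with a row, 18 were too low to be tested, 10 of them listed at 0 in all libraries, and Ifng alone was tested. Ifng had 1.80, 0.54, 6.47, 1.10 and 2.38 TPM in Riok2hKO replicates 1 to 5, against 1.41, 2.50, 3.64, 1.21 and 1.83 TPM in WT replicates 1 to 5 (log2 fold change -0.02, limma adjusted p = 0.975).

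Of 22 tested genes of interferon signalling, 5 rose (22.7%) and 2 fell (9.09%), against 9.58% that rose and 7.55% that fell among all genes tested. Ptpn6, the phosphatase SHP1, which acts on Janus kinases and T cell receptor signalling, fell to 249 ± 7.999 TPM in Riok2hKO, against 313 ± 7.64 TPM in WT (SD, n = 5 each), with no overlap (log2 fold change -0.33, limma adjusted p = 2.4e-05). Exons of Ptpn6 share 195 bases with Gm20531 on the opposite strand, where reads cannot be told apart. Pias4, a SUMO ligase that binds STATs, fell with a log2 fold change of -0.15 (limma adjusted p = 0.0254). Those that rose were Irf2bpl (0.43, adjusted p = 0.0125), Irf2, an antagonist of IRF1 (0.28, adjusted p = 0.0308), Socs3, a feedback inhibitor (0.23, adjusted p = 0.0359), Ptpn1, a phosphatase of Janus kinases (0.21, adjusted p = 0.00307), and Irf4, a factor of activated T cells (0.19, adjusted p = 0.00690), all from limma. Stat2, a signal carrier of the type I receptor, did not pass, with a log2 fold change of -0.01 (limma adjusted p = 0.936). Leaving out 1 library gave 3 to 5 signalling genes that rose, with 3 without each of WT replicates 2 and 5 and Riok2hKO replicates 2, 3 and 4, and 1 to 3 that fell, with 1 without each of Riok2hKO replicates 2, 3 and 4. In nucleic acid sensing, 3 of 23 tested genes rose (13.0%) and 0 fell, beside the same shares of all genes: Traf6, a ubiquitin ligase (0.35, limma adjusted p = 8.0e-04), Nlrc3 (0.30, adjusted p = 0.0164) and Rnaseh2c, an RNase H2 subunit (0.16, adjusted p = 0.0453). Exons of Rnaseh2c share 426 bases with Kat5 on the opposite strand, and reads there cannot be told apart. With 1 library left out, 6.60% to 9.94% of all genes tested rose and 5.12% to 7.05% fell.

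Of 85 other interferon-stimulated genes tested, 14 fell (16.5%) and 3 rose (3.53%), against 7.55% that fell and 9.58% that rose among all genes tested. The 14 include Ly6c2 and Mnda, which lay near the threshold on level. Ly6c2 had 0 to 1.56 TPM in Riok2hKO and 1.44 to 2.55 TPM in WT, so it was tested because of its WT level. Mnda had 0.92 to 1.62 TPM in Riok2hKO and 1.32 to 2.77 TPM in WT. The median log2 fold change was -0.07, with 60 of 85 below 0, against -0.01 and 5375 of 10332 below 0 over all genes tested. Without Riok2hKO replicate 3, 8 fell and 6 rose, and without WT replicate 2, 9 fell. Of all genes tested, 5.39% fell and 7.24% rose in the former fit, and 6.32% fell in the latter. Among those that fell, with the smallest p, were Phf11b (log2 fold change -0.60, limma adjusted p = 3.6e-04), Ifitm2, a membrane protein that blocks viral entry (-0.34, adjusted p = 0.00150), the PYHIN genes Ifi203 (-0.56, adjusted p = 0.00236) and Mndal (-0.61, adjusted p = 0.00490), and Sp140, a chromatin reader (-0.36, adjusted p = 0.00435). Ifi203 and Mndal are near relatives whose exons share 37 bases on the same strand. Exons of Ifitm2 share 268 bases with Gm45717 on the same strand, and those of Sp140 share 358 with Gm17017 on the opposite strand. The levels of Ifitm2 and Sp140 are uncertain to that extent. The smallest p among those that rose was of Gbp5 (0.53, adjusted p = 0.00452), an activator of inflammasomes that belongs to the family of Gbp2. Ly6a, the surface protein Sca1, and Pml, the nuclear body protein, also rose.

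**Figure D5:**
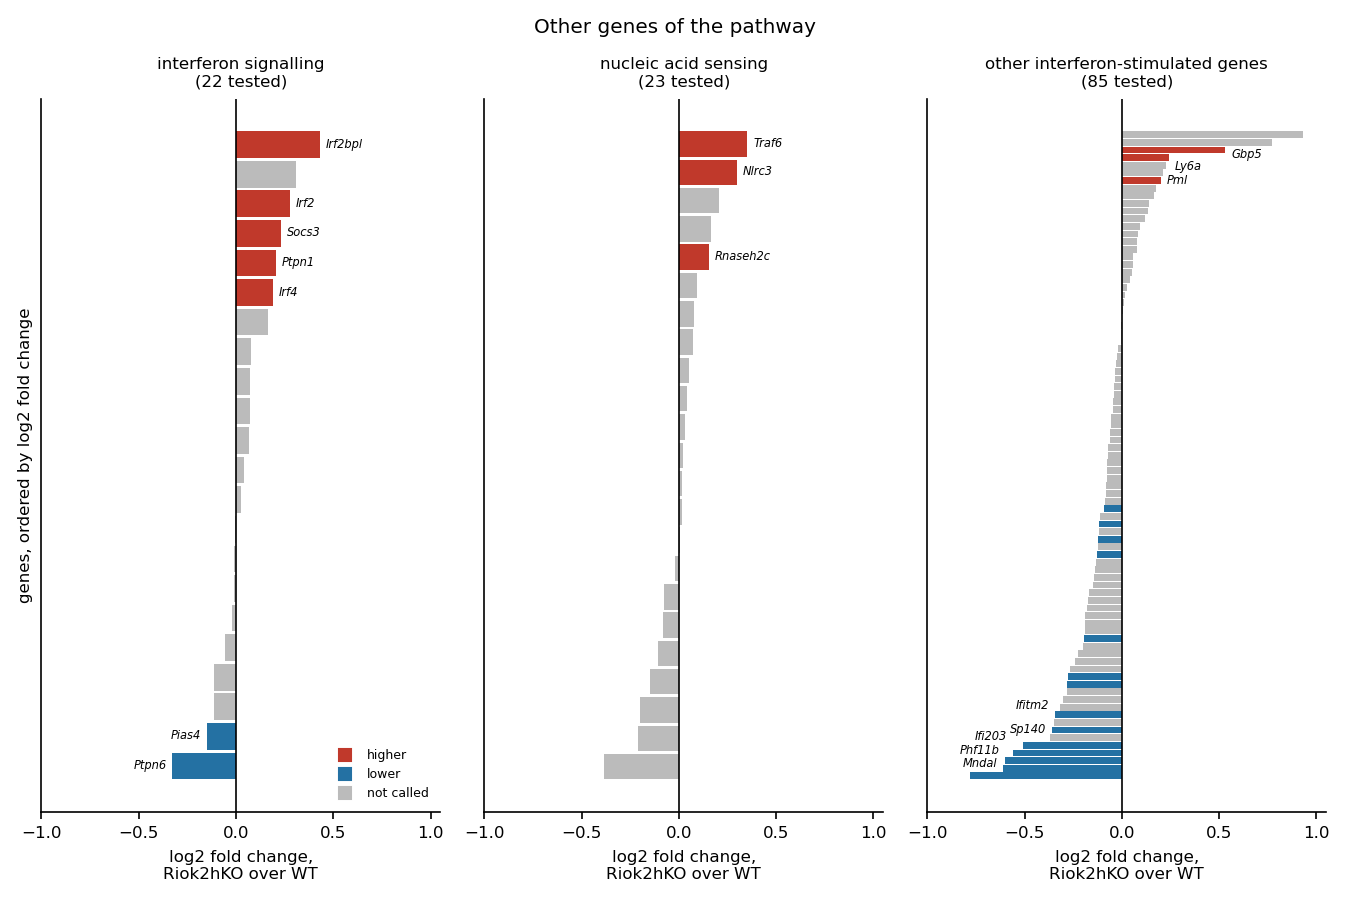
Bars give the log2 fold change of Riok2hKO over WT for every tested gene of 3 lists, ordered by size, in red where the gene rose, in blue where it fell and in grey where it did not pass. Blue bars outnumber red ones among other interferon-stimulated genes (14 against 3), and Ptpn6 is the lowest bar of interferon signalling.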

How the data were processed

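RNA of 10 libraries (5 Riok2hKO, 5 WT) was measured by SMART-seq2, which does not mark strand. Per the labels' protocols, the authors aligned reads to the mm10 transcriptome with Bowtie (version not given in the sources used here) and estimated TPM with RSEM (1.2.8, per the submitters' processing notes). TPM keeps no depth, and RSEM divides reads between similar genes by estimation. Of 23420 deposited rows, 27 whose symbols had become dates were left out. Genes that reached 1 TPM in 5 or more libraries entered limma (version 3.58.1, R 4.3.3) on log2(TPM + 1), with a mean-variance trend, a genotype term and Benjamini-Hochberg adjustment over all 10332 genes. Fold changes on this scale understate changes of low genes. Intervals cover 95%. Alternatives changed the pseudocount, threshold on level, scaling, variance model, weights and covariates, or left out 1 library. The 48 genes and all lists were chosen with earlier results of these data known. Named genes were all 48, with values by library for receptors, genes that passed, and 3 each of the most abundant and most changed others. From other lists up to 6 called genes were named, those of smallest p, plus Ifng and Stat2, and a further gene under this rule is not reported here. Socs3, Ly6a, Pml, Ly6c2, Mnda, Il10rb, the marker genes and the promoters shown were chosen after values were seen. Gene positions and promoters are from RefSeq, GRCm38.p6, and exon overlaps from GENCODE. Plots used matplotlib 3.10.9 (Python 3.11.15).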

Additional observations from a re-analysis of the deposited data

Results flagged for a closer look

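In each group of 5 libraries, the highest or lowest value was set against its nearest neighbour for Riok2 and the 47 genes with a row (96 gene-groups). By Dixon's criterion 8 values, from 5 libraries, stood apart, 6 of them high and 2 low, where chance flags about 1 group in 20. Among expressed genes, Isg20 was 6.65 TPM in Riok2hKO replicate 4, against 4.69 TPM in the next library, Irf8 was 41.0 TPM in Riok2hKO replicate 4, with the next at 45.6 TPM, and Trex1 was 80.1 TPM in WT replicate 2, with the next at 87.3 TPM. Among nearly silent genes, Oas1a was 0.88 TPM in Riok2hKO replicate 1, Ifi44 was 0.04 TPM in Riok2hKO replicate 1, Rsad2 was 0.02 TPM in Riok2hKO replicate 5, Oasl2 was 0.26 TPM in WT replicate 2 and Iigp1 was 1.63 TPM in WT replicate 1. For Ifi44 and Rsad2 the other 4 libraries were at 0, so any value above 0 is picked out and the chance rate does not apply. The causes were not tested.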

How the results depend on the processing

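Ifnar1 and Irf8 passed in all 22 alternatives. Trim30a passed in 17 of 21, Bst2 in 13 of 22 and Ifnar2 in 9 of 22. The number of the 48 genes that fell was 5, against 3 without a variance trend and 2 with the replicate number as a block. In those fits, in that order, 7.55%, 5.69% and 5.46% of all genes tested fell. The number that rose was 0, against 1 at a mean of at least 10 TPM (Dtx3l), 2 without a variance trend (Dtx3l and Parp14) and 1 with the number of detected genes as covariate (Dtx3l). Of all genes tested, 9.58%, 10.7%, 8.55% and 10.7% rose in turn. Of other interferon-stimulated genes, 9 fell with no threshold on level (beside 3.23% of all genes) and 9 without a variance trend (beside 5.69%). Of signalling genes, 3 rose with no threshold on level (beside 4.05% of all genes), and 1 fell with the replicate block (beside 5.46%). In nucleic acid sensing, 1 gene fell under each of quantile normalization, the detected-gene covariate and the block. In those fits, in that order, 9.20%, 7.18% and 5.46% of all genes fell. The causes were not tested. Leaving out 1 library gave 1211 to 1749 changed genes, against 1770. Of all genes tested, 5.12% to 7.05% then fell and 6.60% to 9.94% rose. Of the 48 genes, 2 to 5 fell and 0 to 1 rose, with a median log2 fold change of -0.0902 to -0.0331. Of other interferon-stimulated genes 8 to 12 fell and 2 to 6 rose. Of signalling genes 1 to 3 fell and 3 to 5 rose, and of sensing genes 0 to 1 fell and 2 to 3 rose.

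Log2 fold changes of 10 genes that did not pass turned sign in 22 cases, with values of -0.06 to 0.02 and a lowest adjusted p of 0.705. Oas3 was -0.0299 under quantile normalization and -0.0110 with array weights, Trim25 -0.0269 under quantile normalization and -0.0105 with the detected-gene covariate, and Gbp2 -0.00309 with that covariate. With 1 library left out, values ran from -0.253 to 0.0231 for Dhx58, -0.0512 to 0.111 for Gbp2, -0.121 to 0.0223 for Gbp3, -0.0958 to 0.0164 for Gbp7, -0.0286 to 0.00906 for Ifi35, -0.062 to 0.0172 for Igtp, -0.062 to 0.0597 for Oas3, -0.013 to 0.0603 for Trim25, -0.135 to 0.00924 for Xaf1, -0.13 to 0.00279 for Zbp1. Quantile normalization changed the balance over all genes to 843 that rose and 951 that fell, and a mean of at least 10 TPM to 680 that rose and 724 that fell, against 990 and 780.

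Replicate numbers are shared between groups, but same-numbered libraries deviated together at a correlation of only -0.0341 to 0.0679, so the numbers were not taken as pairs. With the block, 1444 genes changed, against 1770 without it, and Ifnar1 and Irf8 were the 2 of the 48 that fell. TPM keeps no depth, so no counting error can be given, and the nearly silent genes are limited most.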
